A study of Bos taurus with 6 samples.

Results

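The miRNAs described here are the predicted ones of a small RNA table from bovine fat cell cultures. They are the rows that the table calls miRNA and numbers from novel_mir1 upward, without a name from the miRNA catalogue. There are 108 of them, among 879 known and predicted miRNA rows and 2213 rows in all. They were chosen by their row type alone, and no measured value was used to pick among them. All 108 had at least 10 reads in some library, so which rows the table holds may itself depend on reads.

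The table covers 6 libraries of cultured Holstein cells at passage 4 to 6, with adipose tissue as the stated source. Adipocytes, the lipid-storing fat cells, gave 3 libraries, and preadipocytes, their committed precursors, gave 3. The labels carry 1 growth text for all samples. It names F12/DMEM medium, serum and antibiotics, and induction of preadipocytes with insulin, dexamethasone, rosiglitazone and IBMX, the usual adipogenic agents, so the groups are told apart by the cell type label alone. The duration of induction and the origin of the replicates in separate animals or cultures are not given, so p-values measure the spread between these libraries, which may be technical.

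A miRNA is a short RNA that guides Argonaute proteins to partly complementary messages, which are then repressed or degraded. It is cut from a hairpin in its primary transcript, first by Drosha in the nucleus and then by Dicer in the cytoplasm. Prediction programs look for reads that stack on a stretch of genome able to fold into such a hairpin. A predicted miRNA is therefore a candidate, and fragments of other transcripts that happen to fold can enter the same list. Several known miRNAs act on the fat cell programme, which is why adipogenesis studies catalogue them.

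The table gives each predicted miRNA a place in the genome. The sequence identifiers are those of the bovine assembly UMD3.1, and positions are printed as the table gives them. The 108 loci lie on all 29 autosomes and on X, for 30 chromosomes, with 1 more on an unplaced sequence, and 55 are on the forward and 53 on the reverse strand. The given stretches run from 42 to 91 bases, counted from start to end inclusive, with a median of 62. Whether the table's intervals are whole hairpins or parts of them is not given in the sources used here. Gene annotation of that assembly was not used here, so exons, introns and host genes are not stated.

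Most predicted miRNAs were rare, and few were counted in every library. Of the 108, 25 had a count in all 6 libraries and 31 in only 1. The table holds no predicted count between 1 and 9, so a 0 may stand for any count up to 9. Of the 340 counts above 0, 43.5% were between 10 and 19 reads. Only 4 members reached 100 reads in every library: novel_mir1, novel_mir23, novel_mir131 and novel_mir75. A total of 72 members held under 100 reads over all 6 libraries together. The 31 members counted in 1 library had a median of 13 reads and at most 29.

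**Figure D1:**
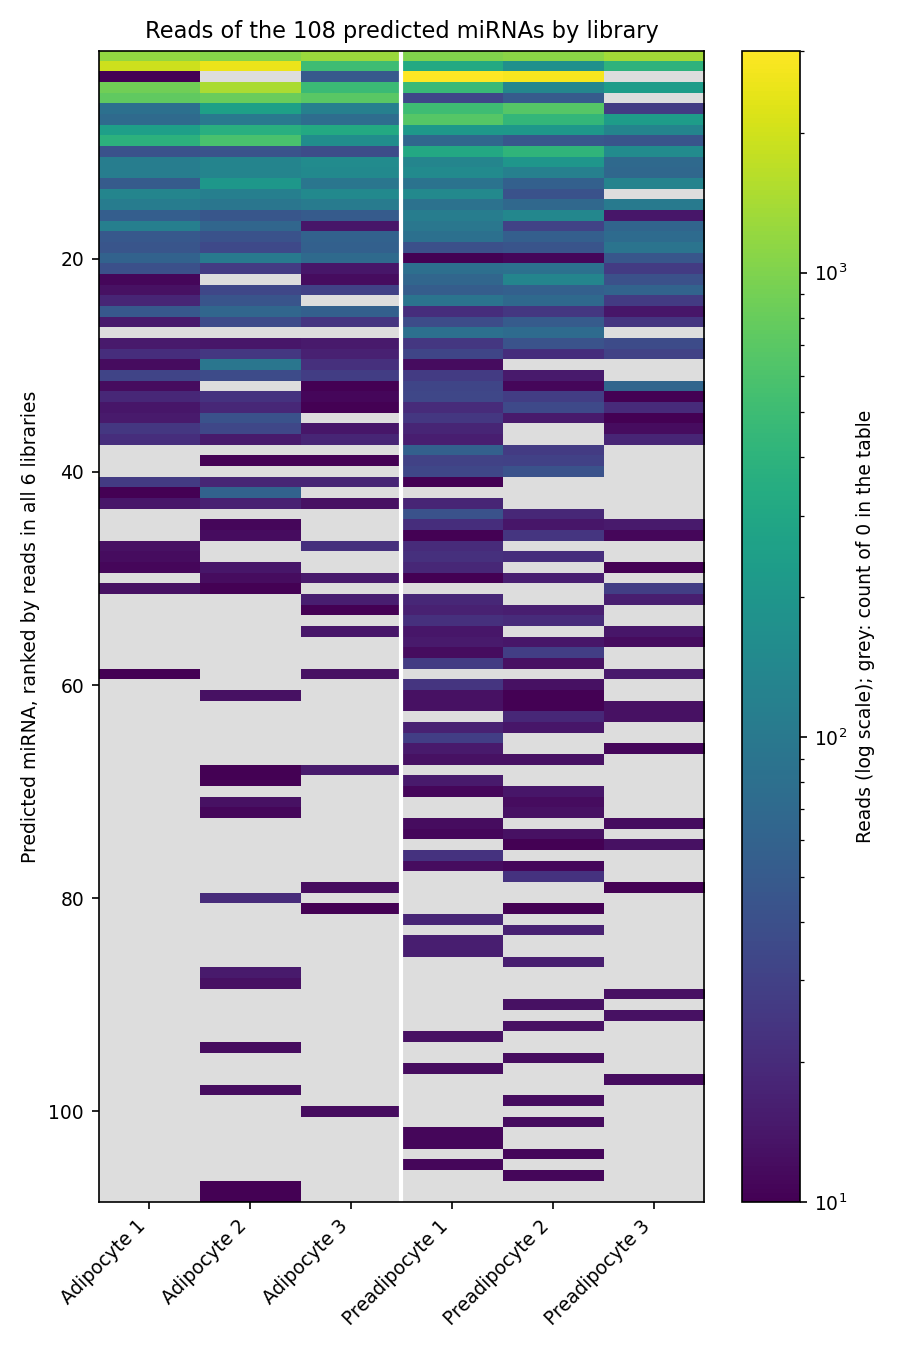
Reads of each of the 108 predicted miRNAs (rows, ranked by their reads in all libraries) in the 6 libraries (columns), on a log colour scale, with counts of 0 in grey. The first ranks are filled in most libraries, and the grey area below them is broken most often in preadipocyte libraries 1 and 2.

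The predicted miRNAs took a very small share of the miRNA reads. Known and predicted miRNAs together held 14525284 to 22283754 reads per library. Of these, predicted ones held 0.0458%, 0.0596% and 0.0267% in adipocyte replicates 1, 2 and 3. The shares were 0.0514%, 0.0556% and 0.0174% in replicates 1, 2 and 3 of the preadipocytes. The groups overlapped, with means of 0.044% ± 0.0165 and 0.0415% ± 0.021 (SD, n = 3 each, two-sided exact permutation p = 0.9, where 3 libraries against 3 cannot go below 0.1). The lowest share in each group was that of replicate 3.

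These libraries were not alike in other respects, and 1 of them stands apart within its group. Reads in the exon, intron, intergenic and repeat rows made up 8.21% to 12% of the table in adipocytes. Preadipocyte replicates 1 and 2 stood at 18.5% and 18.9%, and replicate 3 of that group at 5.29%. Across the 49 predicted miRNAs that could be tested, log2 levels of preadipocyte replicates 1 and 2 correlated at r = 0.94, and each of these with replicate 3 at 0.58 and 0.56. Adipocyte libraries correlated at 0.89 to 0.94 on the same measure. These are descriptions across miRNAs, which share library and depth. Preadipocyte replicate 3 was also the deepest library. The marker list of mesenchymal miRNAs held 697029 to 784086 CPM (reads per 1000000 miRNA reads, here unscaled) in adipocytes and 811732 to 836066 in preadipocytes. That sum was mostly miR-21-5p, and the members of the list went both ways. The log2 difference, adipocytes over preadipocytes, was -0.82 for miR-21-5p and -1.64 for miR-145. It was 8.70 for miR-199a-3p and 3.15 for miR-199b. For the other rows of the list it was 0.67 for miR-21-3p, 0.47 for miR-199a-5p, -0.09 for miR-214 and -0.32 for miR-143. These differences come from the edgeR fit with TMM scaling, described below, and not from the unscaled sums. The list of adipocyte-associated miRNAs held 5596 to 11446 in adipocytes and 1479 to 3233 in preadipocytes. Endothelial miR-126 rows held 44.9 to 91.1 in adipocytes. Preadipocyte replicates 1 and 2 had 95.4 and 117 on these rows, and replicate 3 of that group had 334. In adipocytes and preadipocytes the ranges of the other lists were, in turn, for muscle miRNAs 21.1 to 34.6 and 17.8 to 38.8, neural ones 4.29 to 7.52 and 5.03 to 7.4, blood ones 0.728 to 1.53 and 1.39 to 4.13, and epithelial ones 0.471 to 0.993 and 0.459 to 0.895. Rows were found for 5 of the 7 epithelial names, 1 of the 2 neural names and every name of the other lists, and no row found was at 0 in all libraries. The part of other cells in the results below was not tested. Protein-coding markers are not measured by small RNA sequencing.

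Preadipocyte libraries differed among themselves in how many predicted miRNAs were counted. Adipocyte replicates 1, 2 and 3 counted 44, 54 and 47 of the 108, and preadipocyte replicates 1, 2 and 3 counted 77, 70 and 48. Preadipocyte replicate 3 thus lay within the adipocyte range. The means were 48.3 ± 5.13 and 65 ± 15.1 (n = 3 each, exact permutation p = 0.2). At or above 1 CPM, a level rather than a count, there were 26, 31 and 25 in adipocytes and 58, 57 and 27 in preadipocytes. From here on CPM values are scaled by TMM, which aligns libraries on the bulk of their miRNAs. Means at that level were 27.3 ± 3.21 and 47.3 ± 17.6 (exact permutation p = 0.2). The scaling moved this gap. With library totals alone there were 28, 35 and 25 in adipocytes and 50, 46 and 25 in preadipocytes. The difference was then -11 (exact permutation p = 0.4), where TMM gave -20. At levels of 2 and 10 CPM on the TMM scale it was -8 and -2 (exact permutation p = 0.4 and 0.5). With preadipocyte replicates 1 and 2 left out, which leaves 1 library in that group and no test, the difference of -20 became 0.333.

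Known miRNAs did not show this spread between the preadipocyte libraries, and predicted piRNAs did. A piRNA is a small RNA of the PIWI pathway that silences transposons, chiefly in the germ line, and the table's predicted ones carry the same floor of 10 reads. Of predicted piRNA rows, 353, 320 and 199 of 527 were counted in preadipocyte replicates 1, 2 and 3, against 246 to 291 in adipocytes. Known miRNAs with at least 10 reads numbered 352, 338 and 364 in the same preadipocyte libraries and 361 to 374 in adipocytes. Of 55 predicted miRNAs counted in both preadipocyte replicates 1 and 2, 22 (40%) were at 0 in replicate 3. By the same rule, 111 of 263 predicted piRNAs (42.2%), 18 of 317 known miRNAs (5.68%) and 2 of 19 cattle-discovered miR-2284 and miR-2285 rows (10.5%) were below 10 reads there. These sets differ in level. Among rows with at least 10 reads in some library, medians were 0.49 CPM for predicted, 5.98 for known and 0.988 for miR-2284 and miR-2285 rows. The part of level in these percentages was not tested. The libraries with the most predicted miRNAs were those with the largest share of exon, intron, intergenic and repeat reads, and the part of that share was not tested.

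**Figure D2:**
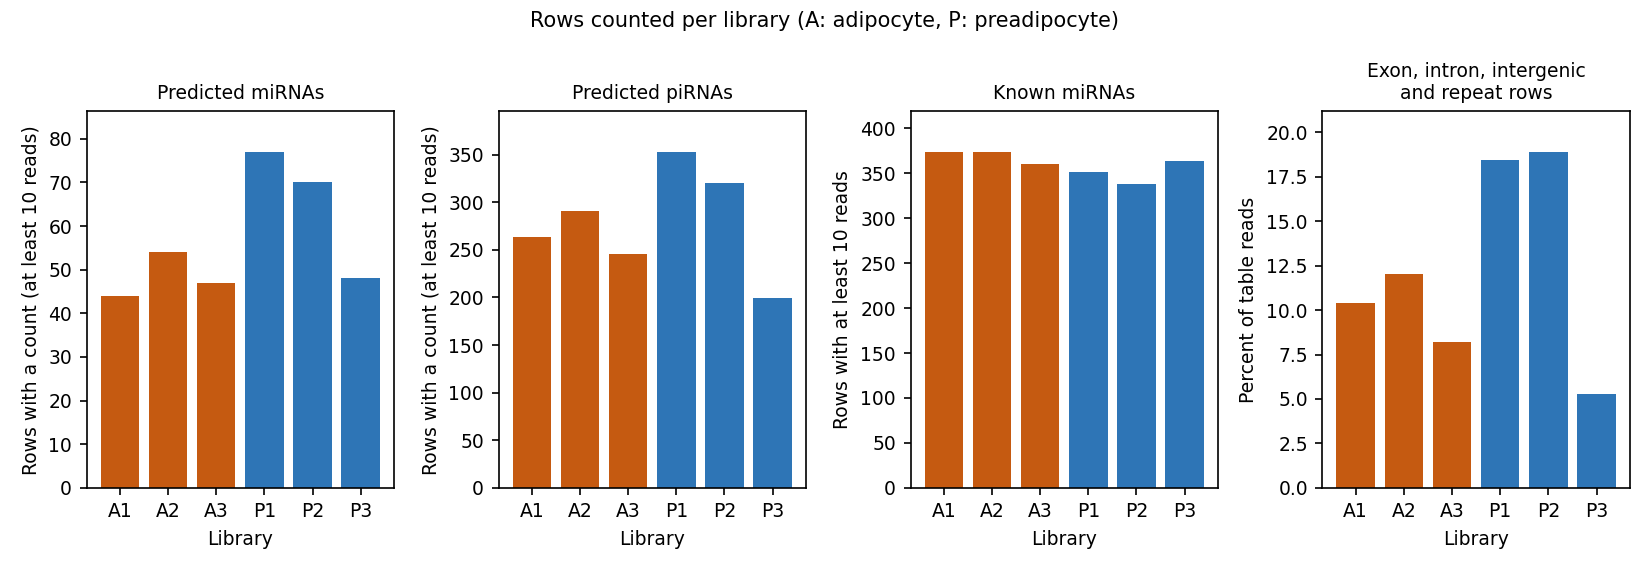
Number of predicted miRNAs, predicted piRNAs and known miRNAs with at least 10 reads, and percent of table reads in the exon, intron, intergenic and repeat rows, for adipocyte libraries A1 to A3 and preadipocyte libraries P1 to P3. P1 and P2 count 77 and 70 predicted miRNAs and P3 counts 48, while known miRNAs range from 338 to 374.

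Between the groups, 56 predicted miRNAs were counted in both, 42 in preadipocytes only and 10 in adipocytes only. Of the 42, 13 were counted in preadipocyte replicates 1 and 2 and not in 3, 10 in replicate 1 alone, 10 in replicate 2 alone and 3 in replicate 3 alone. The 13 had between 11 and 82 reads where counted. The highest was novel_mir78 (chr19:37101216-37101277), named after its values were seen, with 82 and 74 reads in preadipocyte replicates 1 and 2 and 0 in the other 4 libraries. Just 2 members were counted in all 3 preadipocyte libraries and in no adipocyte library. They were novel_mir10 (chr15:42911518-42911569), with 15, 14 and 12 reads, and novel_mir89 (chr14:21301308-21301369), with 13, 10 and 13. These counts sit so close to the 9 reads that a 0 may hide that no fold is given. No member was counted in all 3 adipocyte libraries and absent from all preadipocyte ones.

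A few members carried most of the reads, and the leading one differed between libraries. The 5 members with most reads in a library held 61.6% to 74.7% of that library's predicted reads. At the top in adipocyte replicates 1 and 2 was novel_mir23, with 1931 and 2528 reads. Preadipocyte replicates 1 and 2 were led by novel_mir20, with 2971 and 2804 reads. In replicate 3 of either group novel_mir1 led, with 1271 adipocyte and 1358 preadipocyte reads. Even so, 121 known miRNAs had a higher mean CPM than any predicted one. A small RNA is read from end to end, so these levels were not divided by length. The median level over members was 0.49 CPM, against 5.98 CPM for known miRNAs with at least 10 reads in some library.

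The member with the most reads over all libraries was novel_mir1 (chr1:15637708-15637790, reverse strand). Replicates 1, 2 and 3 of the adipocytes held 1200, 1071 and 1271 of its reads, and preadipocyte replicates 1, 2 and 3 held 1029, 1122 and 1358. The read counts of the groups overlapped, but on the TMM scale every adipocyte library was below every preadipocyte one. There the adipocyte level was 58.4 ± 7.21 CPM and the preadipocyte level 81.5 ± 10.6 CPM. The log2 difference was -0.48 (edgeR, SE 0.28, BH-adjusted p = 0.242) and became 0.14 with libraries scaled by their totals. Also counted everywhere was novel_mir75 (chr7:3988823-3988881), with 249, 367 and 318 reads in adipocytes and 209, 208 and 131 in preadipocytes. Its level was 15.3 ± 2.64 and 13.1 ± 4.59 CPM (log2 difference 0.23, SE 0.37, edgeR BH-adjusted p = 0.68). Much less abundant, novel_mir28 (chr1:81060490-81060552), named after its values were seen, had 109, 93 and 107 reads in adipocytes and 86, 68 and 106 in preadipocytes. Its groups, too, overlapped in reads and were apart on the TMM scale, with adipocytes lower (log2 difference -0.23, edgeR BH-adjusted p = 0.543). All 3 were counted in every library, with differences that did not pass the test.

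The design asked which small RNAs differ between preadipocytes and adipocytes. Differences are given as log2 of adipocytes over preadipocytes. Fitted with the known miRNAs in edgeR's quasi-likelihood test with Benjamini-Hochberg (BH) adjustment, 49 of the 108 had enough reads to be tested. All 49 were counted in both groups and in at least 3 libraries, and 24 of them had at least 1 count of 0. The other 59 were counted in at most 4 libraries. Of the 49, 3 passed an adjusted p of 0.05, with 1 higher (novel_mir29) and 2 lower (novel_mir68 and novel_mir115) in adipocytes. That is 6.12% of the members tested, beside 6.28% of all 414 miRNAs tested. By direction, the background was 3.86% higher and 2.42% lower in adipocytes. Without adjustment 14 of the 49 had p below 0.05 (28.6%), 3 higher and 11 lower, against a background of 34.1% (17.9% higher, 16.2% lower). The groups did not overlap for 18 of the 49 (36.7%), against 44.7% of all tested. Adipocytes were above in 6 and below in 12, where the background was 24.2% and 20.5%. The scaling moved the split. With library totals alone 4 were higher and 2 lower, beside a background of 23.4% (21.3% higher, 2.17% lower). With upper-quartile factors 1 was higher and 4 lower, beside 11.8% (3.62% higher, 8.21% lower). The median log2 difference of all tested miRNAs was 0.62 and -0.31 under these scalings.

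Estimates of predicted miRNAs lay below 0 more often than above. Of the 49, 33 were below 0 and 16 above, where 50.0% of all tested miRNAs lay on either side. The median log2 difference was -0.66 for the predicted and -0.02 for all tested miRNAs. Among the 25 counted in every library, 19 were below and 6 above 0, with a median of -0.79. With library totals alone the predicted median was -0.03 and that of all tested miRNAs 0.62. The predicted median thus still lay below that of all tested, though near 0. The lean was not kept under every setting. With the share of genome-feature reads as a covariate the predicted median was 0.15, beside 0.08 for all tested. Without preadipocyte replicate 3 the predicted median was -1.41 over the 69 members then tested. With replicate 3 as the only preadipocyte library it was 0.42 over 53 members. These are not the same members as the 49. The 69 include members at 0 in all 3 adipocyte libraries, whose estimates can only lie below 0. No test of the list was made.

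**Figure D3:**
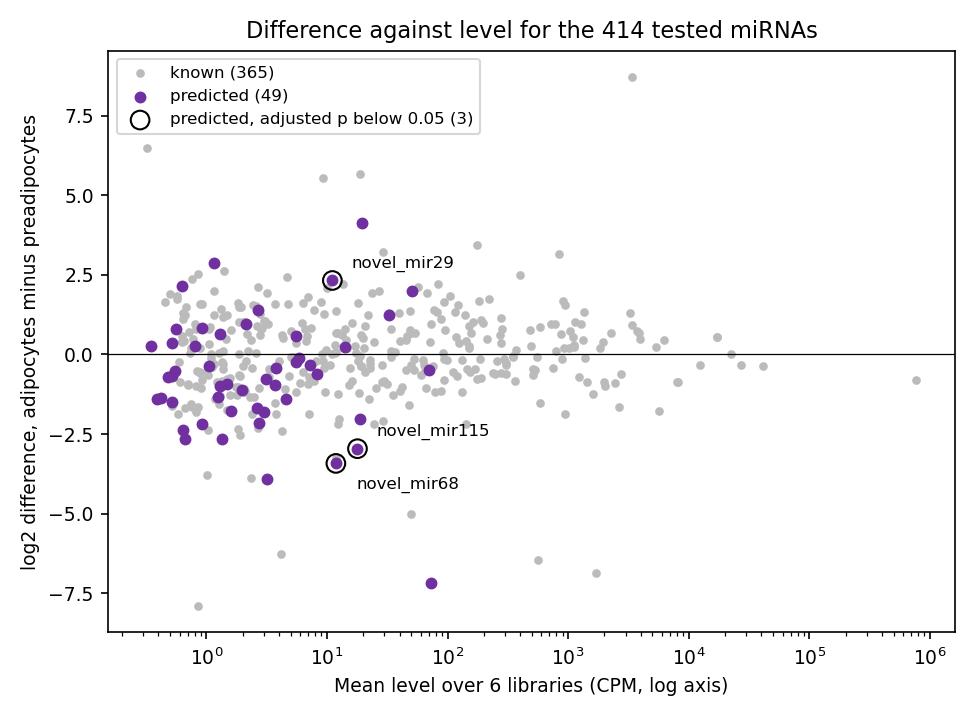
Log2 difference (adipocytes minus preadipocytes) against mean level in CPM on a log axis, for 365 known miRNAs (grey) and 49 predicted ones (purple), with circles around the 3 predicted ones past an adjusted p of 0.05. More purple points lie below 0 (33) than above it (16), and all but 10 members have a mean level below 10 CPM.

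The clearest decrease was that of novel_mir68 (chr5:48164034-48164101, forward strand). Reads were 42, 43 and 38 for adipocyte replicates 1, 2 and 3 and 316, 417 and 157 for preadipocyte replicates 1, 2 and 3. All adipocyte libraries lay below all preadipocyte ones, and the adipocyte values were nearly equal. Its preadipocyte level of 21.7 ± 12.2 CPM fell to 2.02 ± 0.0706 CPM, which is -3.42 on the log2 scale (edgeR, SE 0.52, BH-adjusted p = 0.0242, n = 3 each). The second was novel_mir115 (chr8:83010317-83010381, forward strand), with 72, 101 and 76 reads in adipocytes and 669, 432 and 236 in preadipocytes. The groups were again apart, with preadipocyte replicate 3 the lowest of its group. The adipocyte level was 4.08 ± 0.629 CPM against 31.8 ± 15.9 CPM, or -2.96 on the log2 scale (edgeR, SE 0.50, BH-adjusted p = 0.0263). Against preadipocyte replicate 3 alone the differences of novel_mir68 and novel_mir115 were -2.29 and -1.87. That arm is 1 library, so these are read as values only.

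The only member past the threshold as higher in adipocytes was novel_mir29 (chr9:91170665-91170713, forward strand). Its reads were 392, 584 and 165 in adipocyte replicates 1, 2 and 3 and 67, 47 and 44 in preadipocyte replicates 1, 2 and 3. Every adipocyte library was above every preadipocyte one, though adipocyte replicate 3 was well below the other two of its group. Levels were 18.5 ± 9.64 and 3.7 ± 0.952 CPM, or 2.32 on the log2 scale (edgeR, SE 0.51, BH-adjusted p = 0.0481). With no low-count filter novel_mir29 did not pass (edgeR BH-adjusted p = 0.0546). Nor did it with predicted rows tested alone (edgeR BH-adjusted p = 0.0804). Against preadipocyte replicate 3 alone, again 1 library, the difference was 2.72.

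The number of calls depended on single libraries. Leaving out any 1 of the 3 adipocyte libraries, or preadipocyte replicate 1 or 2, gave 0 calls among predicted miRNAs in edgeR. The background of calls was then 0.214%, 0.215% and 1.73% without adipocyte replicates 1, 2 and 3. It was 0.911% and 0.221% without preadipocyte replicates 1 and 2 in turn. At an unadjusted p below 0.05 were 16 of 72, 17 of 68 and 17 of 67 members tested without adipocyte replicates 1, 2 and 3. Without preadipocyte replicates 1 and 2 in turn they were 12 of 53 and 12 of 54. The unadjusted share of all miRNAs was not computed for these fits, so these counts are not read as a result about the members. In the edgeR fit on all libraries it was 34.1%, beside 28.6% of the members. Leaving out preadipocyte replicate 3 gave 27 of 69 tested (39.1%), 3 higher and 24 lower, where 31.8% of all miRNAs tested were called (13.8% higher, 18.1% lower). Of these 27, 13 were at 0 in all 3 adipocyte libraries, where counts up to 9 may be hidden. These 13 passed the filter through the preadipocyte libraries alone, so their estimates could only lie below 0. Preadipocyte replicate 3, the library left out, was also at 0 for 13 of the 27, not all of them the same members. The 39.1% is therefore not read as a result about the members. DESeq2 on all libraries called 15, of which 3 were higher and 12 lower, beside 22% of the rows to which it gave an adjusted p (11.2% higher, 10.8% lower). It gave one to 74 of the 108. Among its 12 lower calls, novel_mir10, novel_mir25, novel_mir32, novel_mir38, novel_mir50, novel_mir89 and novel_mir100 were at 0 in all 3 adipocyte libraries. Of these, only novel_mir10 and novel_mir89 had a count in preadipocyte replicate 3. Counts up to 9 may be hidden at each 0. The edgeR fit with no low-count filter called novel_mir10 and novel_mir89 as well. Each of the 3 members called in edgeR with all libraries was also called by DESeq2 and without preadipocyte replicate 3, the fits with the most calls. Other settings gave 2 to 6 calls. With no low-count filter 4 of 108 members were called (3.7%), beside a background of 2.16%. At a mean of at least 10 CPM 3 of 10 were called (30%), beside 21.1%. With zeros of predicted rows set to 9 the calls were 6 of 52 (11.5%), beside 8.87%. The share of genome-feature reads as a covariate gave 4 of 49 (8.16%). Adding Rfam and piRNA rows gave 3 of 49 (6.12%), where the background was 5.07%. It was 7.73% with the share of genome-feature reads as a covariate and 3.35% without preadipocyte replicates 1 and 2 together, a fit with 1 preadipocyte library whose spread is taken from the adipocyte libraries. With the replicate number as a block no member was called, beside 0.242% of all tested.

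Other members with large differences did not pass. High in all 3 adipocyte libraries was novel_mir123 (chr3:21314739-21314796, forward strand), with 751, 821 and 695 reads in adipocytes and 34, 51 and 0 in preadipocytes. Its 3 adipocyte libraries were alike and far above the preadipocyte ones. Levels were 37.2 ± 1.66 and 2.16 ± 2.08 CPM, or 4.11 on the log2 scale (edgeR, SE 1.32, BH-adjusted p = 0.0866). With every 0 of a predicted row set to 9 it was 4.01, and the test was passed (BH-adjusted p = 0.0233 in edgeR). DESeq2 also called it (adjusted p = 0.00446). The order of the groups is the same at either value.

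In the adipocyte libraries novel_mir23 (chr12:21161305-21161373, forward strand) and novel_mir131 (chr12:71995519-71995587, reverse strand) varied as novel_mir29 did, with replicate 3 the lowest. Reads of novel_mir23 were 1931, 2528 and 508 in adipocytes and 322, 176 and 401 in preadipocytes. Its groups did not overlap, and the log2 difference was 1.99 (SE 0.60, edgeR BH-adjusted p = 0.076), from levels of 80.4 ± 48.7 and 20.3 ± 5.3 CPM. It passed with library totals alone (edgeR BH-adjusted p = 0.0334) and with DESeq2 (adjusted p = 0.00737). Reads of novel_mir131 were 866, 1448 and 490 in adipocytes and 477, 137 and 235 in preadipocytes. Its groups overlapped on the TMM scale, at 45.5 ± 21.9 and 19.4 ± 11.6 CPM (log2 difference 1.23, SE 0.56, edgeR BH-adjusted p = 0.171). Of the less abundant members with positive estimates and the smallest p, novel_mir13 had 48, 65 and 58 reads in adipocytes and 21, 25 and 14 in preadipocytes. Those of novel_mir107 were 60, 106 and 72 against 10, 11 and 46. Their groups did not overlap on the TMM scale, and their edgeR BH-adjusted p was 0.146 for each. With library totals alone both passed (edgeR BH-adjusted p = 0.0486 and 0.0438).

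The member with the highest mean CPM was abundant in only 2 libraries. It was novel_mir20 (chr2:45306560-45306650, forward strand), with the longest stretch of the list, at 91 bases. Reads were 10, 0 and 49 for adipocyte replicates 1, 2 and 3 and 2971, 2804 and 0 for the preadipocyte ones. A 0 in preadipocyte replicate 3 may hide up to 9 reads, or 0.55 CPM, which is still below the 2.51 CPM of adipocyte replicate 3, so the groups overlapped. Its order against adipocyte replicates 1 and 2 cannot be told. Levels were 1 ± 1.33 CPM for adipocytes and 144 ± 125 CPM for preadipocytes, or -7.16 on the log2 scale (edgeR, SE 2.76, BH-adjusted p = 0.118). The difference passed without preadipocyte replicate 3 (-7.75, edgeR BH-adjusted p = 0.0257), and no fold is given against replicate 3 alone, which is at 0. By itself novel_mir20 held 33.1% and 34.7% of the predicted reads of those 2 libraries. Without it, the predicted share of miRNA reads was 0.0439% ± 0.0167 in adipocytes against 0.0294% ± 0.0104 (n = 3 each, exact permutation p = 0.3).

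A like split of the preadipocyte libraries was seen for novel_mir114 (chr26:26720459-26720523, reverse strand). Its reads were 83, 254 and 121 in adipocytes and 513, 664 and 27 in preadipocytes, so that preadipocyte replicate 3 was the lowest of all 6. Levels were 7.44 ± 4.1 and 30.3 ± 26.5 CPM (log2 difference -2.02, SE 1.09, edgeR BH-adjusted p = 0.216), and against preadipocyte replicate 3 alone, 1 library, the value was 2.11. Without that library it was -2.60 and passed (edgeR BH-adjusted p = 0.023). The other lower members with the smallest p did not split in this way. The reads of novel_mir110 (chr7:2052141-2052194) were 15, 14 and 15 in adipocytes and 25, 43 and 37 in preadipocytes, at 0.724 ± 0.0547 and 2.49 ± 0.918 CPM (edgeR BH-adjusted p = 0.0539). Those of novel_mir48 (chr10:80180298-80180358) were 13, 34 and 30 against 54, 58 and 61, at 1.26 ± 0.537 and 4.05 ± 0.586 CPM (edgeR BH-adjusted p = 0.0637). For novel_mir84 (chr19:43830015-43830085) they were 11, 0 and 12 against 66, 133 and 41 (log2 difference -3.93, SE 1.07, edgeR BH-adjusted p = 0.0637). In these 3 every preadipocyte library, replicate 3 included, lay above every adipocyte one. DESeq2 called all 3, with adjusted p of 0.0154, 0.019 and 0.00457. In edgeR novel_mir110 and novel_mir48 also passed with upper-quartile factors (BH-adjusted p = 0.0447 for each), and novel_mir110 and novel_mir84 with zeros of predicted rows set to 9 (BH-adjusted p = 0.0381 and 0.0233).

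**Figure D4:**
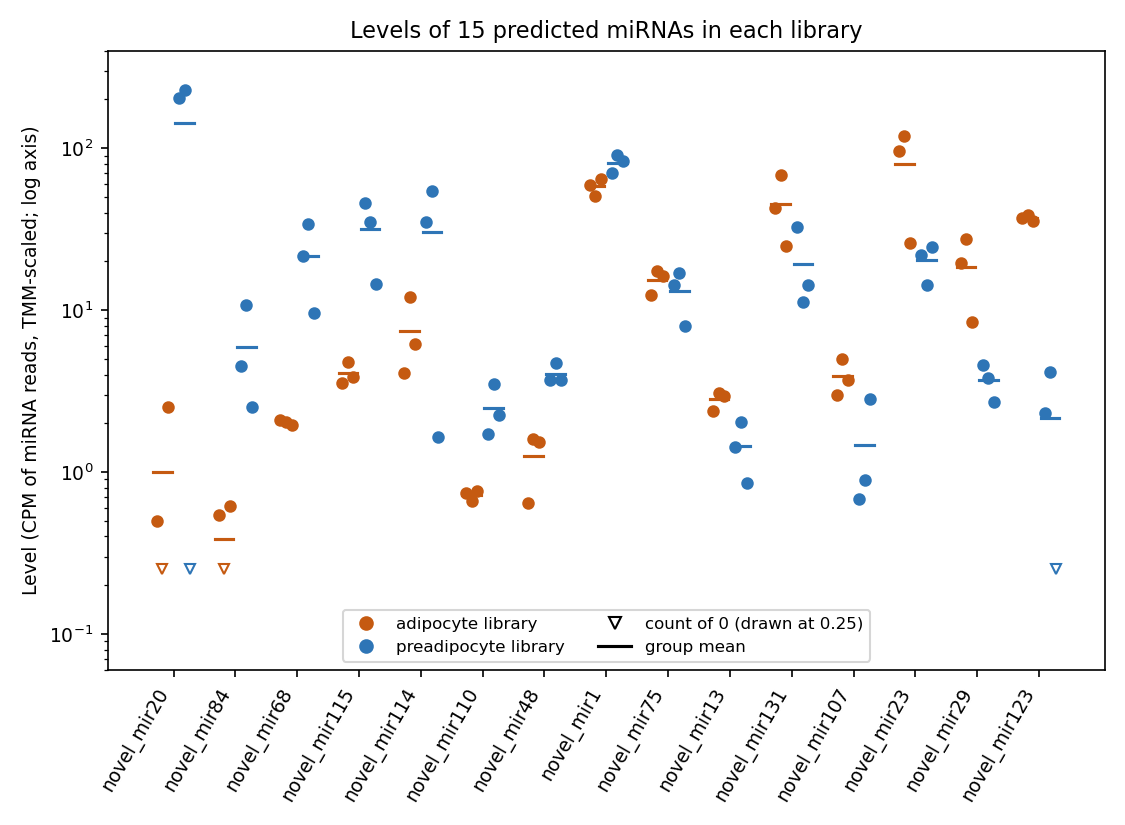
Level in CPM (log axis) of 15 predicted miRNAs in each adipocyte (orange) and preadipocyte (blue) library, ordered by their log2 difference, with lines at group means and open triangles for counts of 0. For novel_mir20 2 preadipocyte libraries lie above 200 CPM and the other at 0, while for novel_mir68 and novel_mir115 all 3 lie above the adipocyte libraries.

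Some predicted miRNAs lay next to each other. On chromosome 25, novel_mir39, novel_mir4 and novel_mir32 stood on the forward strand at 32464681-32464743, 32467184-32467244 and 32469839-32469911, with gaps of 2440 and 2594 bases. The first 2 of these were counted in the same 4 libraries and the other was not. Reads were 12, 93 and 22 in adipocytes and 12, 0 and 0 in preadipocytes for novel_mir39, and 14, 17 and 13 against 18, 0 and 0 for novel_mir4. For novel_mir32 they were 0 in all adipocyte libraries and 58, 27 and 0 in preadipocytes. On chromosome 24, novel_mir88 (50370774-50370825) and novel_mir80 (50372277-50372337) were 1451 bases apart on the reverse strand, and neither exceeded 14 reads. No other pair of members lay within 10000 bases.

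Overlap with the repeats that the table assigns to predicted piRNAs was found for 3 members. The whole 68 bases of novel_mir68 lay in a repeat of uncertain DNA transposon class (chr5:48163839-48164132) on the opposite strand. The predicted piRNA row of that repeat had 17, 0 and 11 reads in preadipocyte replicates 1, 2 and 3 and 0 in the adipocyte libraries. With 27 bases novel_mir23 reached into an endogenous retroviral repeat of the ERVL-MaLR class (chr12:21161347-21161456) on its own strand. The piRNA row there had 15, 12 and 0 reads in adipocytes and 0 in preadipocytes. A DNA transposon repeat of the hAT-Tip100 class (chr2:68464590-68464926) shared 23 bases and the strand with novel_mir67 (chr2:68464904-68464967). That repeat carried 19 predicted piRNA rows with 471, 656 and 565 reads in adipocytes and 501, 545 and 248 in preadipocytes, where novel_mir67 itself had 21, 25 and 17 against 33, 21 and 31. Reads shared between the miRNA and piRNA rows of these loci cannot be told apart in the table.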

How the data were processed

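Per the labels' protocols, RNA of 18 to 30 nt from 3 adipocyte and 3 preadipocyte samples was cut from a gel and sequenced. The submitters' processing notes name Bowtie2. The miRNA prediction program, the genome build and the rule for reads matching several rows are not given in the sources used here. UMD3.1 was inferred from the sequence identifiers. On 9 of 30 chromosomes positions ran past the last gene of ARS-UCD2.0, so its coordinates were not used. Per the file headers the authors deposited a count and a TPM value per row and library. The deposited counts are whole reads, not normalized. The deposited TPM values are the count divided by 1 constant per library (about 22.6 to 30.3 reads per TPM) and were not tested. Predicted miRNA and piRNA rows hold no count from 1 to 9. The 4 genome-feature rows (5.29% to 18.9% of reads), Rfam and piRNA rows stayed out of library sizes and tests.

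Counts of all known and predicted miRNAs were fitted in edgeR 4.0.16 (R 4.3.3) with TMM, filterByExpr, glmQLFit and glmQLFTest, two-sided, with BH adjustment over 414 rows. SEs were computed as the estimate over the root of F. TMM factors ran from 0.735 to 1.4, and 9 hidden reads would be 0.426 to 0.733 CPM. Shares and counts per library were compared with exact permutation tests checked against SciPy 1.17.1. DESeq2 1.42.0 and the other alternatives are in the closing section. The fit was tested on simulated counts for adipocytes against preadipocytes with the floor of 10 applied to predicted rows. Over 433 rows it called 1 of 322 unchanged rows, 1 of 22 changed 2-fold, 17 of 34 changed 4-fold, 23 of 27 changed 8-fold and 28 of 28 changed 32-fold. Predicted rows among these were 36 unchanged and 3 to 5 at each fold. All rows were drawn with 1 common dispersion (0.368) and with no library set apart from its group. The data do hold such a library, preadipocyte replicate 3, so these rates need not hold for them.

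Members named are those past the threshold, the 10 highest by mean CPM, the 5 smallest p each way, and those counted in all libraries of 1 group and none of the other. Others are named for their position, as calls of an alternative fit, or as chosen after their values were seen. The members and lists were chosen with earlier results of these data known. Samples were grouped by the cell type label.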

Additional observations from a re-analysis of the deposited data

How the results depend on the processing

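The number of predicted miRNAs past the threshold, 3 in edgeR with TMM, was 15 with DESeq2 without a low-count filter (34 of 108 had no adjusted p), 6 with library totals alone, 5 with upper-quartile factors and 6 with zeros of predicted rows set to 9. It ranged from 0 to 27 when 1 library was left out. Whether the replicate numbers pair the libraries is not given. Deviations from the group means correlated at 0.03, -0.34 and 0.07 for same-numbered libraries and at -0.27 to 0.27 for the rest. With 3 libraries per group these values cannot decide it. In edgeR with the replicate number as a block, 13 of 49 members had an unadjusted p below 0.05 (share over all miRNAs not computed). The number past the threshold in that fit was 0. It was 2 to 4 with no filter, a minimum of 10 CPM, predicted rows tested alone, Rfam and piRNA rows added, the share of genome-feature reads as a covariate, or preadipocyte replicates 1 and 2 left out, the last 2 chosen after seeing the data. The difference in share of miRNA reads, 0.00256 percentage points, ranged from -0.00948 (without preadipocyte replicate 3) to 0.0112 with 1 library left out, with -0.00524 without adipocyte replicate 2, and was 0.0266 without preadipocyte replicates 1 and 2. The difference in members at or above 1 CPM, -20 with TMM, was -11 with library totals and 0.333 without preadipocyte replicates 1 and 2. With the level set at 2 or 10 CPM it was -8 or -2. Signs turned for novel_mir20 (0.38 with the covariate, 7.28 without preadipocyte replicates 1 and 2), novel_mir114 (0.35 and 2.11 under the same settings), novel_mir1 (0.14 with library totals) and novel_mir75 (-0.083 with upper-quartile factors, and -0.037 to 0.45 with 1 library left out, below 0 without adipocyte or preadipocyte replicate 3). Without preadipocyte replicates 1 and 2 that group is 1 library, assumed to vary like the adipocyte ones, and the 7.28 is a fitted value against a count of 0 and no bound. The cause was not tested. Among 250 values of single named members under the alternatives, 198 kept direction and side of the threshold, 22 lost the call, 22 gained it and 8 turned. Of the counts above 0, 43.5% lie between 10 and 19 reads, near the floor, and the part of depth in which members were counted was not tested.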

Other observations

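The length of the given stretch differed little between members counted often and seldom. Its median was 63 bases for members counted in all 6 libraries and 61 for those counted in 1 library, with medians of 58.5 to 64 for those in between. Chromosome 25 held the most members, 9, followed by chromosomes 1 and 19 with 7 each.

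Predicted miRNAs were spread over libraries much as predicted piRNAs were. Of predicted miRNAs 23.1% were counted in all 6 libraries and 28.7% in 1, and of predicted piRNAs 24.3% and 28.8%. Among known miRNAs with at least 10 reads in some library, 61.9% reached 10 reads in all 6 and 7.98% in 1. Members counted only in preadipocytes made up 38.9% of predicted miRNAs, 32.8% of predicted piRNAs and 9.09% of these known miRNAs, and those only in adipocytes 9.26%, 17.3% and 10.2%. For the cattle-discovered miR-2284 and miR-2285 rows, 42 of 118 reached 10 reads in some library, 14 of these in all 6.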
